A study of Mus musculus with 10 samples.

Results

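The genes described here were Osgin1, the oxidative stress-induced growth inhibitor, the transcription factor gene Nfe2l2, and 8 genes commonly used as targets of its product NRF2, namely Nqo1, Gclc, Gclm, Srxn1, Txnrd1, Hmox1, G6pdx and Pgd. All 10 were found by symbol among the 12148 genes of the deposited liver count table, and all 10 passed the filter on low counts. The list was put together after the same livers had already been compared and Osgin1 was known to be among their most reduced transcripts, so the difference of these 10 genes between the groups is given as a description, without a test. The livers came from wild-type, germ-free C57BL/6 mice, which have no gut microbiota of their own. Mice of the GF+MEV group (n = 5) received 80 µg of microbiota-derived extracellular vesicles (MEV, called EV in the sample labels) in PBS by mouth, with 2 doses a week for 3 weeks. Mice of the GF+PBS group (n = 5) received PBS alone on the same schedule. The MEV were purified from cecal content and stool of control mice, the age and sex of the germ-free mice are not given in the sources used here, and all animals belong to a single experiment. RNA was sequenced from whole liver, so fewer cells of a type and less RNA per cell cannot be told apart in any of the values.

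NRF2 is a transcription factor that is held in the cytoplasm by KEAP1, a redox sensor that hands it to a CUL3 ubiquitin ligase for destruction. When electrophiles or peroxides modify KEAP1, NRF2 accumulates, pairs with a small MAF protein (MAFF, MAFG or MAFK) and binds antioxidant response elements in DNA, sites for which the repressor BACH1 competes. In liver its best known targets make glutathione, reduce thioredoxin and peroxiredoxins, break down heme, supply NADPH and conjugate or export foreign compounds.

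The libraries held between 15746119 and 20523649 counts on genes in GF+MEV and between 16140770 and 19733387 in GF+PBS. Levels are given as CPM, counts relative to the size of the library after trimmed mean of M-values (TMM) scaling. The 10 hepatocyte markers examined summed to 102820 to 120902 CPM in GF+MEV and 105659 to 121061 CPM in GF+PBS, with Cps1 and Hnf4a called higher. Biliary markers (3 of 6 in the table) summed to 28.1 to 79.3 CPM in GF+MEV, where the highest value was that of liver 2 alone and the other 4 livers were at 28.1 to 43.1 CPM, and to 23.2 to 29.7 CPM in GF+PBS, with Krt19 called higher. Among endothelial markers, Lyve1 and Clec4g were called, 1 of them higher and 1 lower. B and T cell markers (4 of 8) summed to 7.11 to 14.6 and 11.5 to 15.3 CPM, with Cd79a and Cd79b called lower, and the part of these cells in the members' values was not tested. GF+MEV liver 2 stood apart, with 9.24% of its counts on ribosomal RNA-like transcripts against 0.153% to 0.409% in the other libraries. Pairs of livers were compared by the root mean square log2 difference over the 300 genes most variable within GF+MEV. Among the GF+PBS livers, 1 lay close to 3 (0.49) and 4 lay close to 5 (0.43), whereas the other GF+PBS pairs differed by 0.65 to 0.85. All GF+MEV pairs differed by 0.88 to 1.27. The genes were chosen for their spread in GF+MEV, so these distances cannot be compared between the groups. Even within the close pairs the counts differed by more than sampling noise.

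Osgin1 was the member with by far the lowest relative level after MEV. The gene (ENSMUSG00000074063, GRCm38 chr8:119434124-119446256, plus strand) encodes a protein named for its induction by oxidative stress and its restraint of cell growth. In GF+PBS livers 1 to 5 it stood at 348, 244, 346, 256 and 240.1 CPM, and in GF+MEV livers 1 to 5 at 53.8, 47.8, 46.0, 48.5 and 36.8 CPM. Every GF+MEV liver was below every GF+PBS liver, with a wide gap between the groups. The means were 46.6 ± 6.19 CPM (SD, n = 5) in GF+MEV and 286.8 ± 55.3 CPM in GF+PBS, so that the treated livers held 16.2% of the level of the PBS livers, or 6.16-fold less. The log2 fold change of GF+MEV over GF+PBS was -2.62 ± 0.15 (SE), the fifth lowest of 12147 genes tested.

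**Figure D1:**
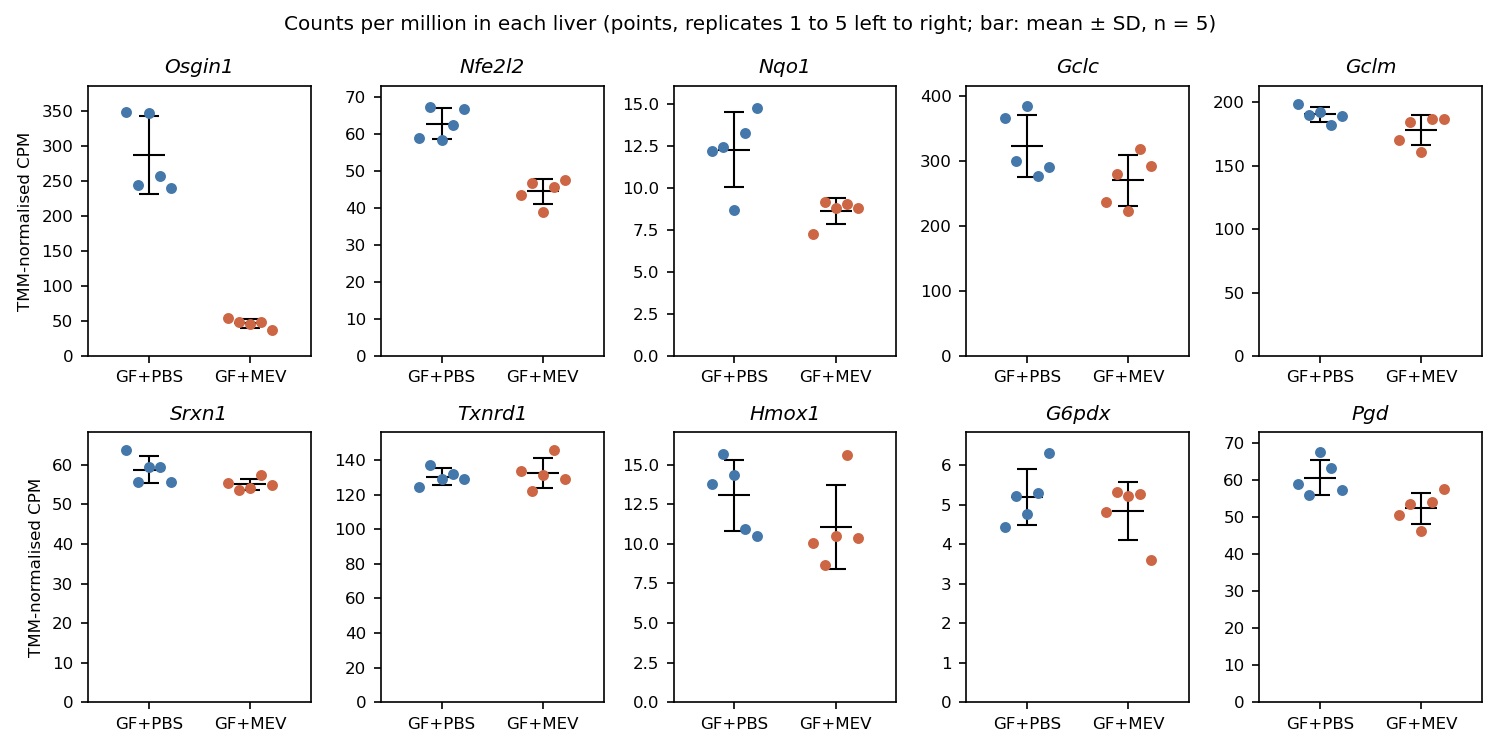
TMM-normalised CPM (vertical axes, from 0, separate for each gene) of the 10 genes in each liver, with GF+PBS in blue and GF+MEV in orange; bars give the mean ± SD of 5 livers. Osgin1 lies between 36.8 and 53.8 CPM in GF+MEV and between 240.1 and 348 CPM in GF+PBS, and the other panels show smaller gaps or overlapping groups.

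Within GF+PBS, Osgin1 fell into 2 levels, 348 and 346 CPM in livers 1 and 3 and between 240.1 and 256 CPM in livers 2, 4 and 5. Livers 1 and 3 were also a pair that lay close together across the genes most variable within GF+MEV. The clock gene Per3 was at 19.5 and 23.1 CPM in livers 1 and 3 but between 57.7 and 68.1 CPM in livers 2, 4 and 5. In GF+MEV, Per3 ranged from 26.5 to 43.4 CPM and Osgin1 showed no such division. The SD of Osgin1 on the log2 scale was 0.20 in GF+MEV and 0.27 in GF+PBS, against medians of 0.15 in each group over 11834 genes. With GF+PBS livers 1 and 3 both left out, the log2 fold change of Osgin1 was -2.40. The part of sampling time or of the clock in the values of Osgin1 was not tested.

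The promoter of Osgin1 is shown with those of Nfe2l2 and Nqo1, the other genes with the lowest log2 fold changes, and that of Srxn1, whose level hardly differed. Sequences are from RefSeq (GRCm38.p6), read 5′ to 3′ on the strand of the gene, from 250 bases before a RefSeq transcript start up to the first base of an annotated exon. Capitals mark matches, on either strand, to the core antioxidant response element TGACNNNGC or to the AP-1 heptamer TGACTCA, which was added after the Osgin1 sequence had been seen. The windows are chr8:119436897-119437117 (plus strand, 221 bases) for Osgin1, inside the annotated gene but outside its exons, chr2:75704664-75704913 (minus strand, 250 bases) for Nfe2l2, chr8:107403207-107403455 (minus strand, 249 bases) for Nqo1 and chr2:152105274-152105515 (plus strand, 242 bases) for Srxn1, the last 3 of them upstream of the annotated genes.
Osgin1: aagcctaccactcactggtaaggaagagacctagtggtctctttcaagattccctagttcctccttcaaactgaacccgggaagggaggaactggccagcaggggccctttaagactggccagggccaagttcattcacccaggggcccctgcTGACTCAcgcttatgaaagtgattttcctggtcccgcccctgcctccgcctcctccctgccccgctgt
Nfe2l2: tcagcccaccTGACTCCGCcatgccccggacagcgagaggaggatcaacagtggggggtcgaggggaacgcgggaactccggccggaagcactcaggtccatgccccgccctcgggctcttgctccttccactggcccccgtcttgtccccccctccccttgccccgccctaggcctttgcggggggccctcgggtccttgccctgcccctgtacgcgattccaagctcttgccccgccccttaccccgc
Nqo1: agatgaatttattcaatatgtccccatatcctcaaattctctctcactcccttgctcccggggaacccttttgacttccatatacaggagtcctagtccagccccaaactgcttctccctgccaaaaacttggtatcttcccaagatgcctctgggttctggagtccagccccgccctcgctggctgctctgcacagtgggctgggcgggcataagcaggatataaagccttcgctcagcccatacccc
Srxn1: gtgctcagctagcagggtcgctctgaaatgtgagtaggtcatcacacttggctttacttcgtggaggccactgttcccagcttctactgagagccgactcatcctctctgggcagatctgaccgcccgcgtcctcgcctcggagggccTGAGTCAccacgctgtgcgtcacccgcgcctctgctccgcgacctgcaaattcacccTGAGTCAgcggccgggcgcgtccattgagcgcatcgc

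Among the members, 8 of 10 had a RefSeq promoter entry, with 11 windows of 250 bases before and 50 after a start. TGACNNNGC was found in windows of 6 of these 8 genes, against 16.9% of 9370 tested genes and 12.4% of 32851 windows in all. Most members were listed as NRF2 targets, so a high share was built into the list and nothing is read from it. In each match the position of TGACNNNGC was taken relative to the start. The first base of the match lay 240 bases before the start in Nfe2l2, 134 before it in Gclm, 92 before it in Txnrd1 and 57 before it in G6pdx, and the matches of Srxn1 and Pgd lay just after the start. The Osgin1 window held no such match but had TGACTCA 97 bases before the start, and Srxn1 had the heptamer 102 and 45 bases before its start. That heptamer was in 5.20% of all windows and in 4.72% of tested genes, and the longer TGACTCAGC, in 0.454% of windows, was in none of the members. The Nqo1 window held none of these motifs, and these matches describe letters in short windows, not binding.

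Nfe2l2, the gene of NRF2 itself (ENSMUSG00000015839, chr2:75675513-75704641, minus strand), was also lower after MEV in every liver. GF+PBS livers 1 to 5 were at 59.0, 67.5, 58.5, 62.4 and 66.7 CPM, and GF+MEV livers 1 to 5 at 43.7, 46.7, 38.8, 45.6 and 47.7 CPM. The groups did not overlap, and the spread within each was small. The means were 44.5 ± 3.50 CPM in GF+MEV and 62.8 ± 4.20 CPM in GF+PBS, a log2 fold change of -0.50 ± 0.07 (SE) and 70.8% of the level of the PBS livers.

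Nqo1, the NAD(P)H quinone dehydrogenase that serves as a standard NRF2 reporter gene (chr8:107388225-107403206, minus strand), was low in both groups. It stood at 12.2, 12.4, 8.69, 13.2 and 14.8 CPM in GF+PBS livers 1 to 5 and at 7.26, 9.18, 8.79, 9.04 and 8.80 CPM in GF+MEV livers 1 to 5. The groups overlapped through GF+PBS liver 3 alone, which lay among the treated livers. The means were 8.61 ± 0.774 CPM in GF+MEV and 12.3 ± 2.24 CPM in GF+PBS, and the log2 fold change was -0.51 ± 0.14 (SE).

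Osgin1, Nfe2l2 and Nqo1 were the members past the threshold of edgeR's quasi-likelihood test (adjusted p under 0.05 over all genes), all 3 of them lower, where 7.64% of the 12147 genes tested passed it in either direction and 3.52% as lower. No member passed it as higher. Because the same contrast had chosen the list, nothing is read from that count. The call of Nqo1 did not hold without GF+MEV liver 1, without GF+PBS liver 4 or without GF+PBS liver 5. Non-overlapping groups with GF+MEV below GF+PBS were seen for 2 of 10 members and 3.45% of all genes tested, and with GF+MEV above GF+PBS for 0 members and 3.94% of all genes. Of the 10 members 9 had a log2 fold change under 0, as did 51% of all genes, and the median was -0.23 for the members and -0.0037 for all genes.

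The subunits of glutamate-cysteine ligase, the first enzyme of glutathione synthesis, had overlapping groups. Gclc, the catalytic subunit of glutamate-cysteine ligase and the rate-limiting enzyme of the pathway (chr9:77754535-77794485, plus strand), was at 365, 299, 384, 277 and 290.1 CPM in GF+PBS livers 1 to 5 and at 236, 280.3, 223, 318 and 293 CPM in GF+MEV livers 1 to 5. The groups overlapped, with a log2 fold change of -0.26 ± 0.13 (SE). As for Osgin1, GF+PBS livers 1 and 3 were the highest, and without both of them the log2 fold change of Gclc was -0.10. Gclm, the modifier subunit (chr3:122245557-122270732, plus strand), ranged from 160.9 to 187 CPM in GF+MEV and from 183 to 199 CPM in GF+PBS, with means of 178 ± 11.8 and 191 ± 5.92 CPM and a log2 fold change of -0.10 ± 0.05. Its exons overlap Gm17494 on the other strand, from which unstranded counts could not be separated, and the pseudogene Gm6061 on the same strand.

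Srxn1 and Txnrd1, which repair peroxiredoxins and reduce thioredoxin, differed little between the groups. Srxn1, sulfiredoxin (chr2:152105516-152111376, plus strand), was at 63.8, 55.6, 59.5, 59.4 and 55.6 CPM in GF+PBS and at 55.3, 53.5, 54.2, 57.4 and 54.9 CPM in GF+MEV. Its groups overlapped and its log2 fold change was -0.09 ± 0.04 (SE). Txnrd1, the cytosolic thioredoxin reductase (chr10:82833951-82897712, plus strand), had means of 132 ± 8.68 CPM in GF+MEV and 130.3 ± 4.78 CPM in GF+PBS. It was the only member with a log2 fold change above 0, at 0.02 ± 0.05 (SE), and the GF+PBS range of 124 to 137 CPM lay within the GF+MEV range of 122 to 146 CPM.

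Hmox1, the inducible heme oxygenase (chr8:75093621-75100589, plus strand), was at 13.8, 15.7, 14.3, 10.97 and 10.5 CPM in GF+PBS livers 1 to 5 and at 10.1, 8.69, 10.5, 15.6 and 10.3 CPM in GF+MEV livers 1 to 5. The groups overlapped, with a log2 fold change of -0.24 ± 0.18 (SE), and GF+MEV liver 4 lay far above the other 4 treated livers. Hmox1 is abundant in Kupffer cells, and the summed level of 10 Kupffer cell and macrophage markers was 501 CPM in that liver against 267 to 338 CPM in the other GF+MEV livers. In GF+PBS the summed markers were highest in liver 2 (436 CPM) and lowest in liver 5 (308 CPM), which were also the livers with the highest and lowest Hmox1. Other livers did not follow this order. GF+PBS liver 1 had a higher sum than liver 3 (411 against 389 CPM) but lower Hmox1. In GF+MEV the sum was lowest in liver 5 and Hmox1 in liver 2. None of the 10 markers passed the test between the groups, and the part of these cells in the Hmox1 values was not tested.

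The pentose phosphate pathway members supply NADPH. Pgd, 6-phosphogluconate dehydrogenase (chr4:149149991-149166771, minus strand), stood at 59.0, 55.8, 67.5, 63.3 and 57.3 CPM in GF+PBS livers 1 to 5. Its GF+MEV livers 1 to 5 were at 50.6, 53.3, 46.2, 54.0 and 57.5 CPM. Only GF+MEV liver 5 reached into the range of GF+PBS, and the log2 fold change was -0.21 ± 0.07 (SE). G6pdx, the X-linked glucose-6-phosphate dehydrogenase that opens the pathway (chrX:74409483-74429194, minus strand), was the least abundant member, with 56 to 108 counts per library. Its means of 4.84 ± 0.724 CPM in GF+MEV and 5.21 ± 0.707 CPM in GF+PBS differed by less than their spread, with a log2 fold change of -0.10 ± 0.13 (SE). Along 418 of the 3080 exonic bases of G6pdx lies Ikbkg on the other strand.

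Divided by exon length, the levels of the members spanned a wide range. That length joins all annotated exons of a gene and can exceed the length of the transcripts expressed. The order between genes, and whether neighbours overlap, depends on this choice. In GF+PBS Osgin1 had the highest mean, 107 CPM per kb, and overlapped Gclc at 85.8 CPM per kb in single livers. Gclm (30.3 CPM per kb), Srxn1 (20.8) and Txnrd1 (18.4) followed without overlap, Txnrd1 overlapped Nfe2l2 (16.5), and Pgd (9.40), Nqo1 (7.89) and Hmox1 (7.46) overlapped in sequence above G6pdx (1.69). In GF+MEV the order began with Gclc (71.7 CPM per kb) and Gclm (28.3), and Osgin1 at 17.4 CPM per kb had moved down to the fifth place, where its livers overlapped those of Txnrd1 (18.7). The remaining order was Srxn1 (19.5 CPM per kb) above Txnrd1, then Nfe2l2 (11.7), Pgd (8.12), Hmox1 (6.30), Nqo1 (5.55) and G6pdx (1.57). Apart from Osgin1, only Nqo1 and Hmox1 exchanged places, and these neighbours overlapped in both groups, as did Pgd and Hmox1 in GF+MEV.

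**Figure D2:**
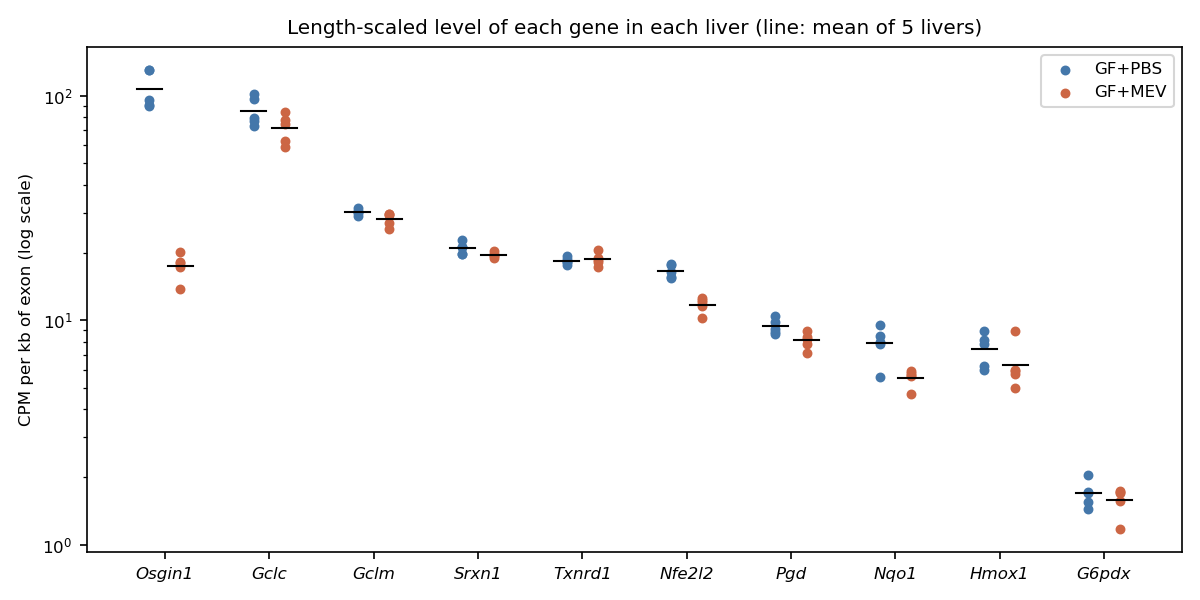
Length-scaled level of each member (CPM per kb of all annotated exons of the gene joined, log scale) in each of 5 GF+PBS (blue) and 5 GF+MEV (orange) livers, with lines at the group means, ordered by the mean in GF+PBS. Osgin1 stands first in GF+PBS at 107 CPM per kb and at 17.4 CPM per kb in GF+MEV. The other genes shift less, most of all Nfe2l2 (16.5 to 11.7 CPM per kb) and Nqo1 (7.89 to 5.55 CPM per kb).

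The genes whose profile over the 10 livers was most like that of Osgin1 were sought by the root mean square difference of log2 CPM centred on each gene's mean, among 11833 genes. Gm45724 (0.33), Id3 (0.44), D930048N14Rik (0.55), Foxa2 (0.62) and Adra2b (0.63) were nearest. Gm45724 (0.365 CPM in GF+MEV and 3.43 CPM in GF+PBS) and Adra2b (1.04 and 3.26 CPM) were near the floor. At such levels the prior count shrinks log2 differences, so their ranks are uncertain. Id3, an inhibitor of DNA-binding protein, was at 18.2 CPM in GF+MEV and 66.4 CPM in GF+PBS, and Foxa2, a hepatic forkhead factor, was at 13.5 and 37.9 CPM. No other member was near Osgin1 by this measure, the closest being Nfe2l2 at rank 328 with a difference of 1.09. The genes nearest to Nqo1 were Snrpn (0.14), Trim65 (0.14), Lmnb1 (0.15), Kctd11 (0.15) and Apol7a (0.15), and Nfe2l2 was at rank 18 with 0.18. Of these, Snrpn (1.54 CPM in GF+MEV) and Kctd11 (1.01 CPM) were also low. Likeness here followed mainly the size of the difference between the groups, which the gene list had been chosen on.

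Among the regulators of NRF2, Maff and Trim21 passed the test. Of 16 genes for sensors, partners, repressors and degraders of NRF2, 1 rose and 1 fell, where 4.12% and 3.52% of all genes did, 7 of 16 had a log2 fold change under 0, and the median was 0.03. Maff, a small MAF partner, rose to 25.8 ± 4.03 CPM (SD, n = 5) after MEV, against 10.05 ± 3.81 CPM in the PBS livers, with no overlap (log2 fold change 1.36 ± 0.26 SE, edgeR adjusted p = 0.000626). Trim21, a ubiquitin ligase that binds p62, fell from 9.77 ± 1.24 to 5.45 ± 0.675 CPM, again without overlap (log2 fold change -0.84 ± 0.12, edgeR adjusted p = 0.000407). The log2 fold change was -0.17 ± 0.06 for Keap1 (adjusted p = 0.129 in edgeR), and for Bach1 it was 0.15 ± 0.21 (adjusted p = 0.68), for Mafg 0.02 ± 0.06 (adjusted p = 0.894) and for Mafk 0.04 ± 0.09 (adjusted p = 0.847). The calls of Maff and Trim21 held under each of the 20 alternatives run.

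**Figure D3:**
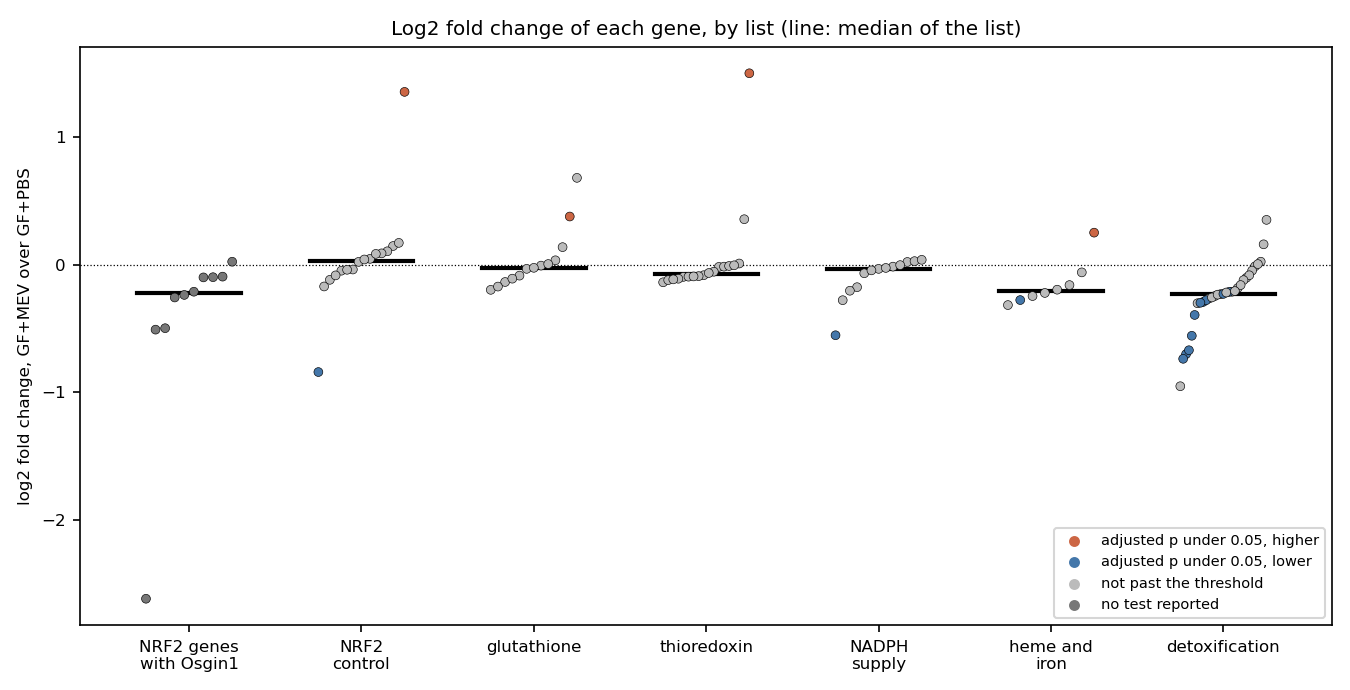
Log2 fold change of GF+MEV over GF+PBS (vertical axis) for each gene of the 10 members, shown without a test, and of 6 related gene lists, with a line at each list's median; orange and blue points passed edgeR's test as higher and lower. Osgin1 lies at -2.62, far below every other gene shown, and Txnip (1.50) and Maff (1.36) lie highest.

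The glutathione and thioredoxin lists each had 1 called gene (7.69% and 5.56%, both higher, where 4.12% of all genes were called higher). Of 13 measured genes of glutathione synthesis, recycling and use (3 of the 16 listed, Slc7a11, Ggt1 and Gpx2, were not in the table) 1 rose and 0 fell, 8 of 13 had a log2 fold change under 0, and the median was -0.02. The one that rose was Mat1a, the hepatic methionine adenosyltransferase, which acts upstream of cysteine supply, at 3500 ± 319 CPM in GF+MEV and 2694 ± 346 CPM in GF+PBS (edgeR adjusted p = 0.0185). It lost the call without GF+PBS liver 3 (adjusted p = 0.0535) and with scaling by library size alone (adjusted p = 0.0692). Of 18 genes of the thioredoxin and peroxiredoxin system and of superoxide and peroxide removal, 1 rose and 0 fell, 15 of 18 had a log2 fold change under 0, and the median was -0.07. Txnip, the thioredoxin-interacting protein, which binds and inhibits thioredoxin, rose from 63.4 ± 10.5 to 179 ± 14.1 CPM, without overlap (log2 fold change 1.50 ± 0.12 SE, edgeR adjusted p = 2.78e-07). Its range was 159.9 to 198 CPM in GF+MEV and 50.4 to 75.3 CPM in GF+PBS, and 606 of its 3123 exonic bases overlap the antisense gene Gm15441.

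No call among the genes of NADPH supply and of heme and iron handling was firm. Of 13 measured genes of NADPH supply (Nnt was not in the table), 0 rose and 1 fell (7.69%, where 3.52% of all genes did). Of these genes, 10 of 13 had a log2 fold change under 0, and the median was -0.03. Rpia, ribose-5-phosphate isomerase of the pentose phosphate pathway, fell from 4.84 ± 0.840 to 3.29 ± 0.486 CPM (edgeR adjusted p = 0.0401), but lost the call without any 1 of GF+MEV livers 1, 2, 4 and 5 or GF+PBS livers 2, 4 and 5 (adjusted p between 0.0644 and 0.0931). Of 8 measured genes of heme and iron handling (Abcb6 was not in the table), 1 rose and 1 fell. That was 12.5% in each direction, where 4.12% of all genes rose and 3.52% fell. Of these genes, 7 of 8 had a log2 fold change under 0, and the median was -0.21. Hmox2, the constitutive heme oxygenase, rose from 28.9 ± 1.47 to 34.3 ± 1.88 CPM (edgeR adjusted p = 0.0229), and 892 of its 2217 exonic bases overlap Cdip1 on the other strand. Blvrb, biliverdin reductase B, fell from 152 ± 16.0 to 125.5 ± 10.9 CPM (edgeR adjusted p = 0.046). Hmox2 lost the call without GF+MEV liver 5 or GF+PBS liver 2 or 3 (adjusted p between 0.0551 and 0.0671), and Blvrb without GF+MEV liver 1, 3, 4 or 5 or GF+PBS liver 1, 3 or 4 (adjusted p between 0.0614 and 0.119).

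Conjugation, reduction and export enzymes were the related list with the most called genes. Of its 31 genes 10 fell (32.3%, where 3.52% of all genes did) and 0 rose, 27 of 31 had a log2 fold change under 0 (51% of all genes), and the median was -0.23. Gsta2, an alpha-class glutathione S-transferase, fell to 24.1 ± 2.67 CPM after MEV, against 39.2 ± 5.92 CPM in the PBS livers, with no overlap (log2 fold change -0.70 ± 0.13 SE, edgeR adjusted p = 0.000825). Gsta3, a far more abundant member of the same class, fell from 1883 ± 170.0 to 1432 ± 107 CPM (log2 fold change -0.39 ± 0.08, edgeR adjusted p = 0.00405). Nqo2, the relative of Nqo1, fell from 77.4 ± 5.60 to 62.9 ± 2.83 CPM (edgeR adjusted p = 0.00784), although 762 of its 4042 exonic bases overlap Serpinb6a on the other strand. Gstm2, a mu-class transferase, fell from 78.6 ± 6.25 to 64.2 ± 4.22 CPM (edgeR adjusted p = 0.0168), and did not pass the threshold without GF+PBS liver 3 (adjusted p = 0.0505). The other genes that fell were Ces2g, Aldh3a2, Mgst3, Abcc4, Gstm3 and Gstm6, with log2 fold changes between -0.74 and -0.21. The transferases of a class are close paralogs, between which reads may have been divided. The number that fell depended on single libraries, being 5 without GF+MEV liver 2, 4 without GF+MEV liver 3, 5 without GF+MEV liver 4, 6 without GF+PBS liver 3, 5 without GF+PBS liver 4 and 6 without GF+PBS liver 5. It was 3 when the close GF+PBS pairs (1 with 3, 4 with 5) were summed, a setting chosen after seeing the data, and Gsta2, Gsta3 and Nqo2 held their call in every setting.

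**Figure D4:**
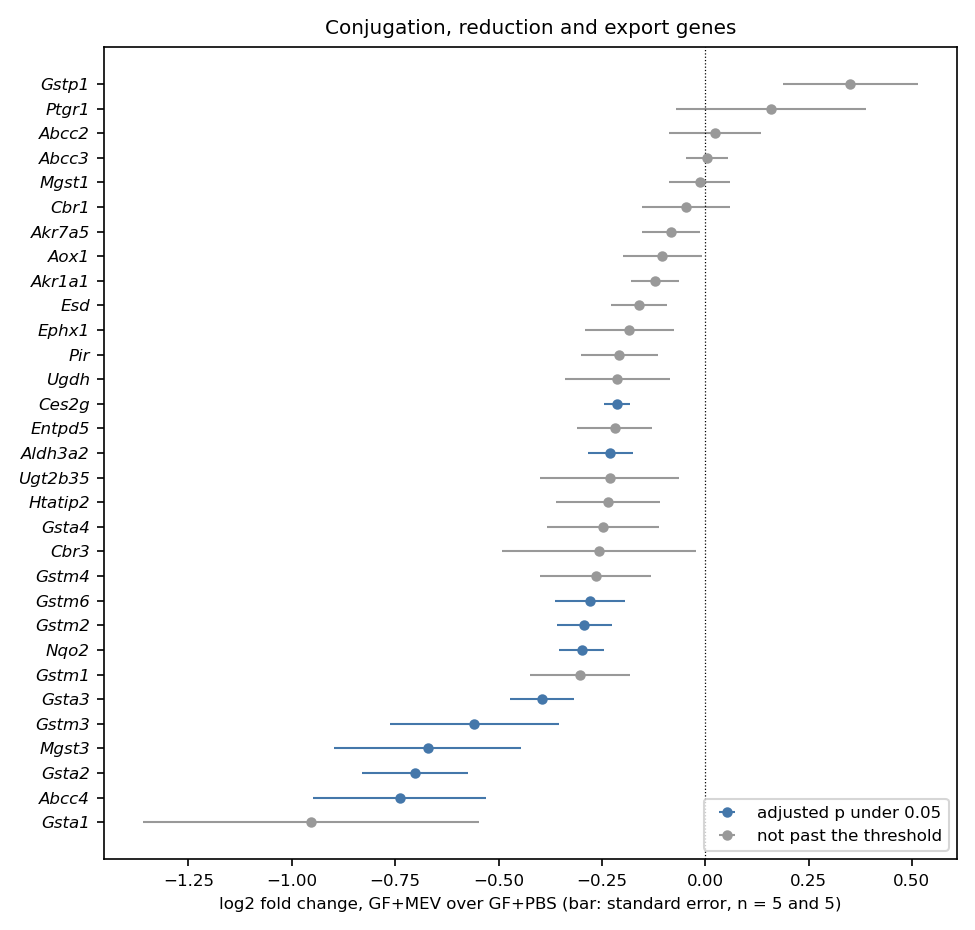
Log2 fold change of GF+MEV over GF+PBS (horizontal axis, bar: standard error, n = 5 and 5) of the 31 conjugation, reduction and export genes, with genes past edgeR's threshold in blue. The 10 blue genes all lie below 0, from Abcc4 at -0.74 to Ces2g at -0.21, and Gsta1, at -0.95 with a wide bar, did not pass.

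The values of the members were also taken under other ways of treating the counts, as a description. Across 21 alternatives the log2 fold change of Osgin1 stayed between -2.70 and -2.40, that of Nfe2l2 between -0.58 and -0.45 and that of Nqo1 between -0.65 and -0.44. Osgin1 and Nfe2l2 were past the threshold in each of the 20 alternatives with a test. Nothing is read from this, since the same livers had been compared before the list was chosen. Of the 10 members 9 kept the sign of their difference throughout, and Txnrd1, between -0.05 and 0.05, did not. Gclc ranged from -0.33 to -0.10, Hmox1 from -0.40 without GF+MEV liver 4 to -0.16, and G6pdx from -0.21 to -0.01, the last without GF+MEV liver 5.

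**Figure D5:**
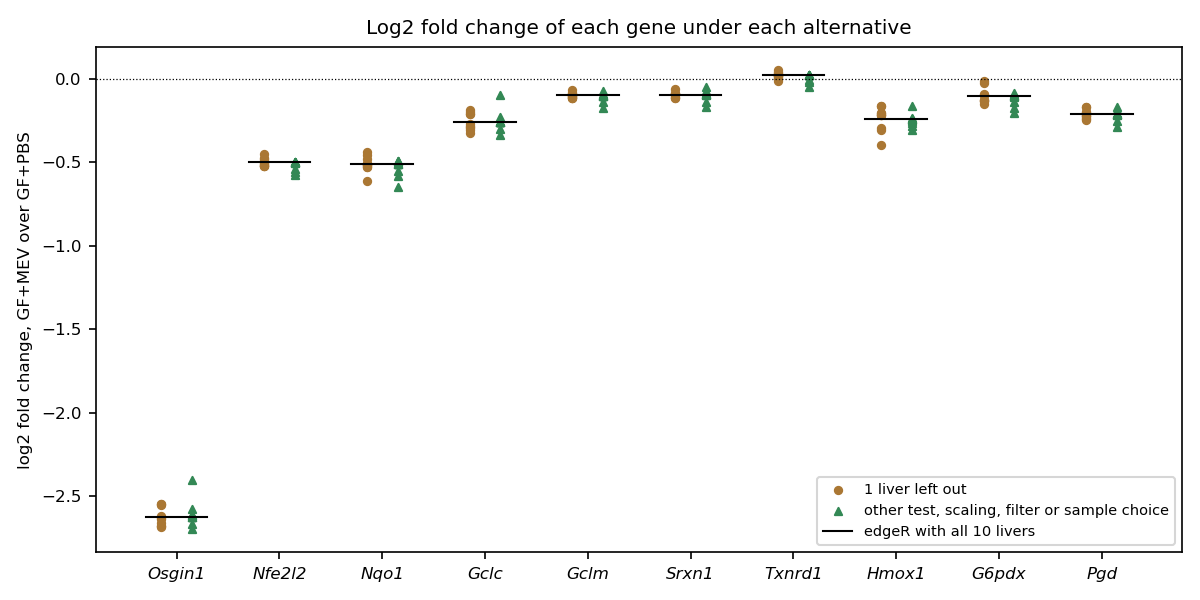
Log2 fold change of GF+MEV over GF+PBS (vertical axis) of each member with 1 liver left out (brown circles) and under other tests, scalings, filters or sample choices (green triangles), with a line at the value from edgeR with all 10 livers. Osgin1 stays between -2.70 and -2.40 in all of them, and Txnrd1 is the gene whose values lie on both sides of 0.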

How the data were processed

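Whole livers of 10 germ-free mice were profiled by RNA sequencing. The authors deposited raw counts per Ensembl gene. Per the labels and the methods of the study, base calls were converted with bcl2fastq 2.17 and reads aligned to GRCm38 with STAR 2.7.3a. The methods state that genes with fewer than 20 HTSeq counts across all samples were dropped. Of the 12148 genes in the table, 11725 had at least 10 counts in every library. Shares over all genes therefore describe mostly well detected genes. The strand setting and annotation release of the counting are not given in the sources used here. Another 5 columns match no sample and were not used. Gene names and coordinates were taken from GENCODE (GRCm38), which lacked a symbol for 5 identifiers.

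GF+MEV was compared with GF+PBS in edgeR 4.0.16 (R 4.3.3) by the quasi-likelihood test over 12147 genes with at least 20 counts in total, after TMM scaling, with Benjamini-Hochberg adjustment and a threshold of 0.05. For standard errors, log2 CPM values were used (prior count 2). The steps were tested on simulated data. DESeq2 1.42.0, limma 3.58.1 (voom), other scalings, other filters, a replicate block and leaving out each liver were alternatives.

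The members, the related lists and the tests were chosen with earlier results of these data known, the lists from general knowledge of the pathway. Named were all members, up to 4 genes per list and direction with the smallest p among those past the threshold, and the 5 genes most like Osgin1 and Nqo1 in profile. Further genes (Keap1, Bach1, Mafg, Mafk, Per3, Gsta1, the other called genes of the conjugation list and the called cell type markers) were named after their values were seen.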

Additional observations from a re-analysis of the deposited data

Results flagged for a closer look

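In 42 groups of 5 livers, 3 values lay apart from the other 4 by Dixon's ratio (critical value 0.71), where chance at 1 in 20 gives 2.1. Nqo1 in GF+MEV liver 1 was at 7.26 CPM against 8.79 to 9.18 CPM in the other GF+MEV livers (ratio 0.80). Hmox1 in GF+MEV liver 4 was at 15.6 CPM against 8.69 to 10.5 CPM (ratio 0.74). G6pdx in GF+MEV liver 5 was at 3.60 CPM against 4.82 to 5.31 CPM (ratio 0.71).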

How the results depend on the processing

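Of the 10 members, 8 moved by less than the spread between livers in all 21 alternatives, and Gclm (-0.17) and Srxn1 (-0.17) moved further with scaling by library size alone. Over all genes 500 rose and 428 fell. The share of called genes that rose was 53.9%, 41.2% with upper-quartile scaling and 32.5% with library size alone, where 332 rose and 691 fell. With single livers left out, between 388 and 561 genes rose and between 304 and 397 fell. With the close GF+PBS pairs summed, chosen after seeing the data, 209 fell.

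Calls of the lists varied as follows. Glutathione genes that rose numbered 0 with library size alone, with the pairs summed and without GF+PBS livers 1 and 3, and 0 to 1 with single livers left out. Thioredoxin genes that rose numbered 2 in DESeq2 and 1 to 2 with single livers left out. NADPH genes that fell numbered 2 in DESeq2 and with upper-quartile scaling, 4 with library size alone, 0 with the pairs summed and 0 to 1 with single livers left out. Heme and iron genes that rose numbered 0 with upper-quartile scaling, library size alone, the pairs summed and GF+PBS livers 1 and 3 left out, and 0 to 1 with single livers left out. Those that fell numbered 2 in DESeq2, limma-voom and with upper-quartile scaling, 0 with DESeq2 size factors, 4 with library size alone, 0 with the pairs summed or GF+PBS livers 1 and 3 left out, and 0 to 1 with single livers left out. Conjugation, reduction and export genes that fell numbered 3 with the pairs summed, 6 without GF+PBS livers 1 and 3 and 4 to 9 with single livers left out, and 0 to 1 rose with single livers left out and 1 without GF+PBS livers 1 and 3. The cause of these differences was not tested. Of 11 named genes of the lists, 6 were called in all 20 alternatives, while Hmox2 lost its call with upper-quartile scaling (edgeR adjusted p = 0.0658) and library size alone (0.145), Blvrb with DESeq2 size factors (0.0505), and Mat1a (0.07) and Gstm2 (0.0843) with the pairs summed.

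Mice are numbered 1 to 5 in both groups. Deviations of same-numbered livers correlated at -0.20 to 0.19, over 0.1 in 1 of 5 pairs. What truly paired mice would give is not known, so this check cannot show whether the numbers pair them. With a replicate block, 450 genes rose and 342 fell, 2 glutathione genes rose, 0 heme and iron genes rose and 0 fell, 0 NADPH genes fell, and Rpia (adjusted p = 0.0858), Hmox2 (0.067) and Blvrb (0.0967) lost their calls. Low counts limit G6pdx most, and p-values reflect the spread between mice of a single experiment.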
